A study of Rattus norvegicus with 2 samples.

Results

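Genes for the GTPases, SNARE proteins, coats and adaptors of vesicle trafficking were compared between the duodenum of an immobilized and that of a control rat. The genes were taken by name: every probe set of the array whose gene symbol begins with Rab, Arf, Vamp, Stx, Snap, Syt, Sec, Cop or an Ap1 to Ap4 subunit code followed by its number or subunit letter. This gave 122 probe sets of 86 genes, out of 8799 probe sets and 4736 genes. Another 2 probe sets matched by name but carried several symbols and were left out. Because the choice was by name, it also took in the Rab partners Rab11fip5 and Rab3ip, the clathrin assembly protein gene Snap91 and the lipid-binding protein gene Sec14l3.

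The study measured total RNA of the duodenal mucosa of male Wistar rats aged 15 weeks on rat U34A arrays, an Affymetrix oligonucleotide platform. The immobilized rat was kept in an immobilization cage for 2 weeks, and the control rat in a metabolic cage over the same period. The labels give 1 animal and 1 array for each condition, name the material as epithelial cells and do not mention pooling. Since there are no replicates, the spread between animals is unknown and no test was made. All ratios are of the immobilized over the control rat, so that a log2 ratio below 0 is a lower signal in the immobilized rat.

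Vesicles bud from one membrane when Arf GTPases and coat proteins gather cargo, and they fuse with the next when Rab GTPases tether them and SNARE proteins on both membranes zip together. In the enterocyte this traffic carries digestive enzymes and transporters to the brush border, recycles them, and passes lipoproteins from the endoplasmic reticulum through the Golgi to the basolateral side. Neurons, endocrine cells and pancreatic acinar cells use related Rab, SNARE and synaptotagmin isoforms to release stored granules on a calcium signal.

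A gene was taken as measured on an array if its signal exceeded a floor of 39.9 signal units, the median of all signals on both arrays. Of the 86 trafficking genes, 56 passed it on both arrays (65.1%), 8 on a single array and 22 did not pass it at all. Over all 4736 genes of the array, 53.3% passed it on both arrays, and 1909 genes did not pass it at all. Most classes were measured in large part, with exceptions that included the synaptotagmins, the Rabs of regulated secretion and the SNAP-25 family. All 6 recycling Rabs, all 6 Sec proteins and all 4 VAMPs passed in both rats, as did 9 of 10 adaptor subunits, 7 of 8 syntaxins and 5 of 6 Arfs. By contrast only 1 of 13 synaptotagmins, 1 of 7 Rabs of regulated secretion and 1 of 3 genes of the SNAP-25 family did so. Rab2a, Stx6 and Snap29, which serve many cell types, also stayed at or below it.

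**Figure D1:**
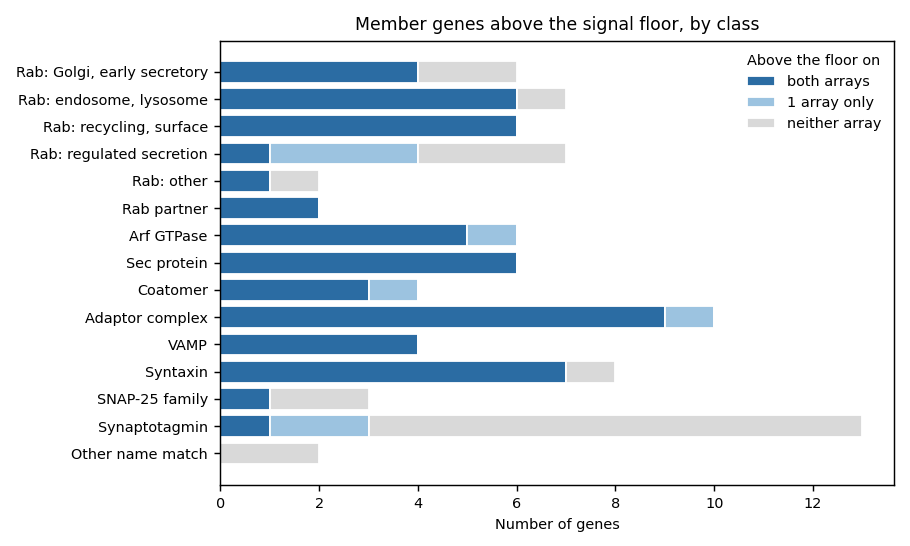
Number of trafficking genes (horizontal axis) with a signal over 39.9, the floor, on both arrays, on 1 of them or on neither, for each class. The grey bar is longest for the synaptotagmins, with 10 of 13 genes on neither array, while all 6 Sec proteins and all 4 VAMPs are on both.

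The 22 genes not above the floor included some that act at the synapse, although the synaptic SNARE genes Stx1a, Vamp1 and Vamp2 passed it in both rats. Snap25, the plasma membrane SNARE of neurons, had signals of 23.9 in the control rat and 29.6 in the immobilized rat at its highest probe set. Syt1, the calcium sensor of synaptic vesicles, had 0.9 and 2.1. Rab3a and Rab3c, which act at synaptic vesicles, had 16.7 and 10.3, and 14.7 and 16.0. These values gave no ratio. The others not above the floor on either array were Rab2a, Rab12, Rab15, Rab29, Rab38, Snap29, Snap91, Stx6, Sec14l3, Syt2, Syt4, Syt6, Syt7, Syt8, Syt9, Syt10, Syt11 and Syt12. Among 17 markers of enteric neurons and glia on the array, 14 were likewise on neither, against 1909 of all 4736 genes. The 14 include Snap25 and Syt1 themselves, which that list shares. The peptides Vip (11.3 and 12.9) and Npy (9.3 and 12.1) and the neuronal RNA-binding protein Elavl4 (25.1 and 11.3) were among them.

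Signals of trafficking genes differed little between the rats, and 0 of the 56 with a ratio differed by 2-fold in either direction. Over all 2524 genes with a ratio, 2.02% were at least 2-fold higher and 0.674% at least 2-fold lower. At 1.5-fold, 4 trafficking genes were lower and 1 was higher, together 8.93% of the 56, while 4.87% of all genes were lower and 8.36% higher by this size, 13.2% in all. The 4 lower were Snap23, Syt3, Rab1a and Rab7a, and the higher was Rab11fip5. Small differences pointed more often down than up. A ratio below 0 was found for 38 of 56 trafficking genes (67.9%), against 50.6% of all genes, and their median log2 ratio was -0.13, against -0.01 over all genes. Among the 38 genes that also passed a floor at the 70th percentile of signals (127.6), 22 had a ratio below 0 (57.9%). Of all genes above that floor, 51.3% did. The medians were -0.04 and -0.01, so the lean was smaller among the brighter genes. The SD of the log2 ratios over the 56 genes was 0.31, against 0.41 over all genes with a ratio. The technical SD between probe sets of the same gene was 0.31 over the whole array, taken over 1570 probe sets of 696 genes. It pools all probe sets, while each gene ratio is of its brightest, so these SDs are not of like values. The technical SD leaves out the animals and any error shared by all probe sets of a gene.

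**Figure D2:**
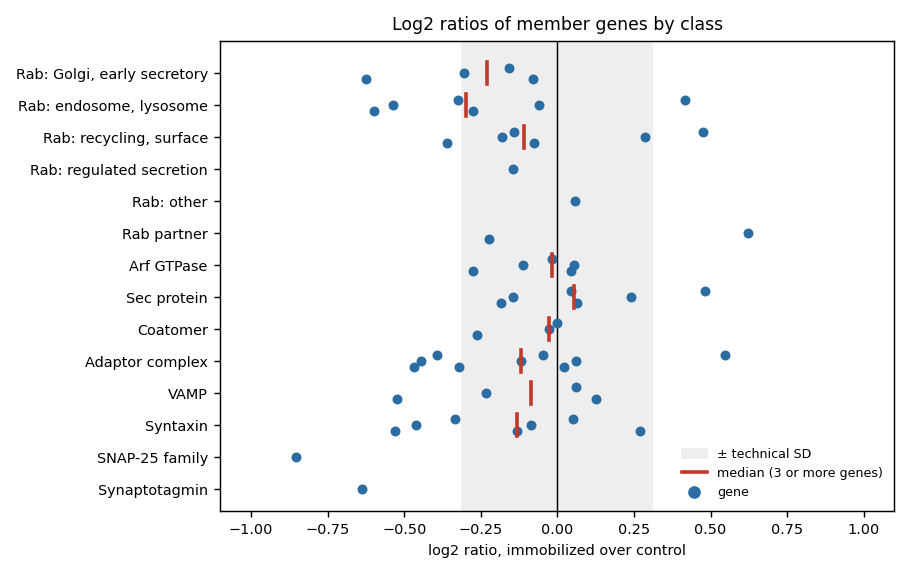
Log2 ratio of the immobilized over the control rat (horizontal axis) for each of the 56 trafficking genes with a ratio, by class. Each point is a gene, red bars are medians of classes with at least 3 genes, and the grey band is the technical SD of 0.31 on either side of 0; the points farthest out are Snap23 at -0.85 and Rab11fip5 at 0.62.

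The arrays also differed in other measures. Of 9 spike-in probe sets above the floor, which report RNAs added at hybridisation, 7 had lower signals for the immobilized rat, with a median log2 ratio of -0.21. Enterocyte markers were lower for 14 of 16 genes (median -0.30; summed signal 72804 in the control and 61838 in the immobilized rat), from Krt20 (-0.54) and Mep1b (-0.49) to Cdh17 (0.18) and Lct (0.41). Exocrine pancreas markers were higher for 16 of 18 genes (median 0.72; summed signal 14499 and 19367), with Ctrb1 (1.82), Sycn (1.81), Clps (1.44), Gp2 (1.41) and Amy2a3 (1.09) past 2-fold. The lowest were Rnase1 (-0.02) and Zg16 (-0.38), which intestinal goblet cells also make. Zg16 had the highest signals of this list (6825 and 5248) and so made up the largest part of both sums. Smooth muscle markers were higher for 3 of 4 with a ratio (median 0.55), with Acta2 at 1.68, Myh11 at 0.60, Actg2 at 0.51 and Tagln at -0.02. Their summed signal of 320 and 609 includes Cnn1 (27.0 and 54.0), above the floor in the immobilized rat only. Desmin, Des, was not above the floor (10.3 and 9.5). Enteroendocrine markers divided into 3 higher and 3 lower (summed signal 2750 and 2727), from Cck (-0.50) and Chgb (-0.41) to Sst (0.39) and Tac1 (0.53), with Gast, Gcg, Pyy and Tph1 not above the floor. Leukocyte markers also divided evenly, 2 and 2, from Cd14 (-0.52) and Cd4 (-0.37) to Cd74 (0.18) and Cd3g (0.62). Their summed signal of 3003 and 3347 was mostly Cd74 and includes Ptprc (50.1 and 38.4), above the floor in the control rat only. Cd3d, Cd8a, Cd2 and Cd79b were among those not above the floor. The neuronal and glial markers summed to 156 and 120 over the 3 above the floor on either array, of which Mapt alone had a ratio (-0.34). The part of these differences in the trafficking ratios was not tested, and in tissue RNA fewer cells of a type and less RNA per cell cannot be told apart.

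Rab GTPases made up the largest class, with 28 genes, of which 18 had a ratio, 14 of them below 0, and a median log2 ratio of -0.15. Within it, all 4 Golgi Rabs with a ratio and 5 of 6 endosomal Rabs were below 0, against 50.6% of all genes. Several of these ratios were smaller than the technical SD of 0.31. Rab1a, which directs vesicles from the endoplasmic reticulum to the Golgi, had a signal of 274 in the control rat and 178 in the immobilized rat, a log2 ratio of -0.62. Rab6a, which acts at the Golgi, went from 469 to 379 (-0.30). Rab33b, a Golgi Rab that also serves autophagy, and Rab34 differed less, at -0.16 and -0.08. The other probe set of each was far below the floor in both rats (1.8 and 4.4 for Rab33b, 4.3 and 3.5 for Rab34). All 4 measured genes of the early route were thus lower, with a median of -0.23.

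Among the endosomal Rabs, 5 of 6 were lower, with a median of -0.30. Rab5a, the GTPase of early endosome fusion, was lower at both of its probe sets, which come from different accessions. Its signals were 158 and 109 at one and 94.9 and 50.5 at the other, for log2 ratios of -0.54 and -0.91. Rab5b, its paralog, went from 363 to 300 (-0.28). Rab7a, which governs the step from late endosomes to lysosomes, had 296 and 196 (-0.60). Rab14, which links the Golgi and endosomes, was almost level at -0.06. The fast recycling Rabs divided, with Rab4a at -0.32 (63.3 and 50.6) and Rab4b at 0.42 (160 and 213). Another Rab4b probe set had 40.9 in the control rat, just above the floor, and 25.7 in the immobilized rat.

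Rabs that recycle and deliver membrane to the cell surface had ratios on both sides of 0. Rab8a, which is needed to bring brush border proteins to the apical membrane, went from 876 to 683 (-0.36), and Rab8b from 221 to 195 (-0.18). Rab11a, the Rab of apical recycling endosomes, was close to level at each of 3 probe sets, between -0.15 and -0.05. Rab11b, its paralog, was higher at each of 3 probe sets, between 0.28 and 0.54, with signals of 550 and 670 at the highest. Rab13, a Rab of the tight junction, was also higher, from 62.5 to 86.9 (0.48). The probe sets of Rab10 disagreed, with 694 and 628 (-0.14) at one and 514 and 677 (0.40) at the other. Rab28 was near 0 at both of its probe sets (0.06 and -0.05).

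The Rabs of regulated secretion were at or below the edge of measurement. Rab3b alone had a ratio, -0.15 (92.0 and 83.1), and its other probe set was below the floor in both rats (14.4 and 10.7). Rab3d and Rab26, both of which act at the zymogen granules of acinar cells, had signals of 41.4 and 30.6, and 41.8 and 31.6. Both were just above the floor, in the control rat only. Rab27a, which docks granules and lysosome-related organelles, had 45.4 and 17.5. For these 3 only bounds can be given, at least 1.04-fold, 1.05-fold and 1.14-fold lower.

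Among the partners of Rabs, Rab11fip5, which binds Rab11 on recycling endosomes, went from 53.9 to 82.9, the highest ratio of all 56 genes (0.62). Rab3ip, the exchange factor that activates Rab8, went from 185 to 158 (-0.22).

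**Figure D3:**
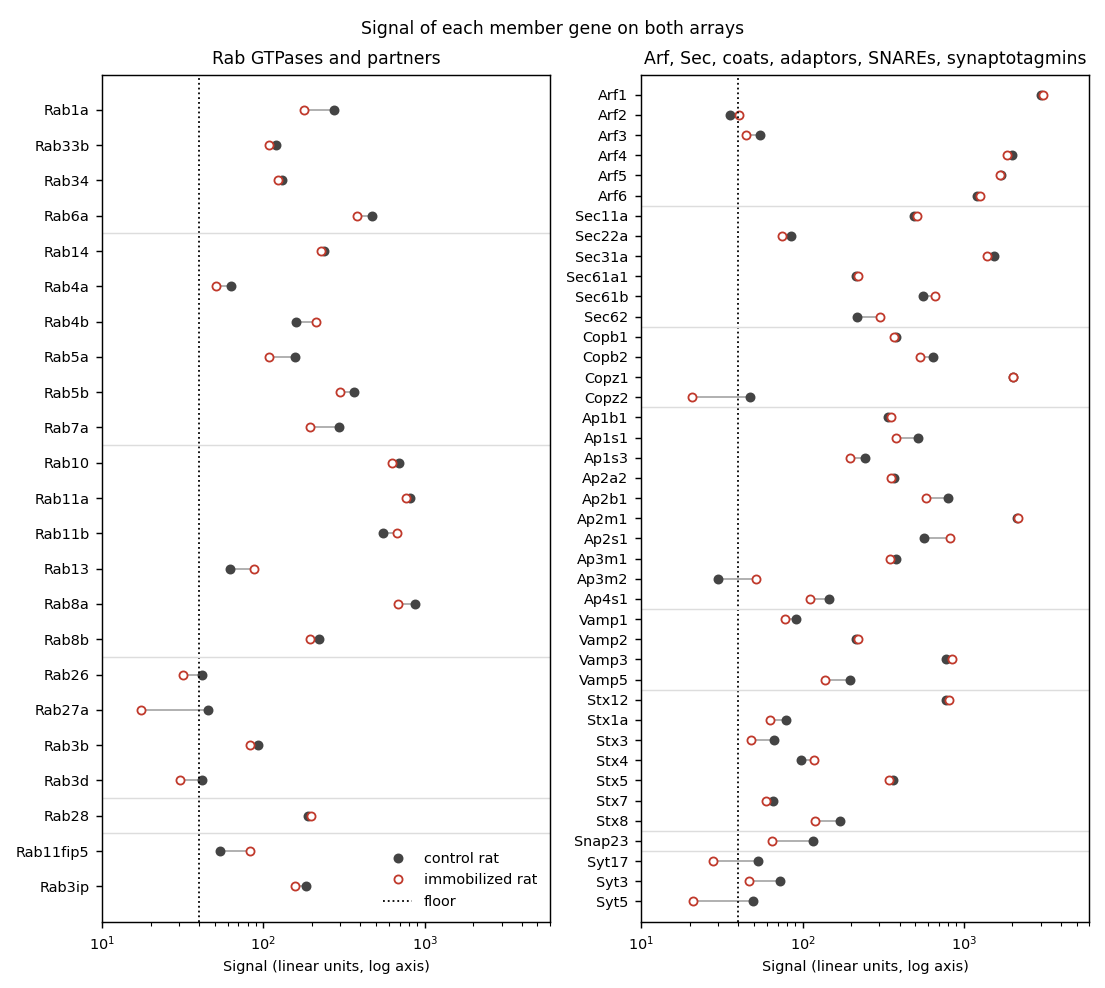
Signal on a log axis (linear units, horizontal) of the 64 trafficking genes above the floor on at least 1 array, for the control rat (filled) and the immobilized rat (open), with the floor of 39.9 dotted. Most pairs nearly touch; the wider gaps among genes above the floor in both rats include those of Snap23, Rab1a and Rab7a, while Rab27a, Copz2, Syt5 and Syt17 cross the floor.

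The Arf GTPases, which recruit coats to the Golgi and plasma membrane, were level between the rats. Arf1, which brings coatomer and adaptors to the Golgi, had signals of 2999 and 3094 (0.05). Arf4 had 1996 and 1848 (-0.11), and Arf5 had 1709 and 1687 (-0.02). Arf6, which works at the plasma membrane and endosomes, had 1207 and 1253 (0.05). Only Arf3, near the floor, lay farther out, with 54.2 and 44.7 (-0.28), and Arf2 reached the floor in the immobilized rat only (35.4 and 40.2). The median over the 5 with a ratio was -0.02.

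Sec proteins act at the endoplasmic reticulum, and 4 of their 6 genes had ratios above 0, with a median of 0.05. Sec62, which helps proteins enter the reticulum after their synthesis, went from 217 to 303 (0.48), and Sec61b, a subunit of the translocation channel, from 559 to 660 (0.24). The channel subunit gene Sec61a1 was level (213 and 220, 0.04). Sec11a, the catalytic subunit of signal peptidase, had 0.06 at its brighter probe set and -0.13 at another from the same accession. Sec22a had 84.9 and 74.7 (-0.18).

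Sec31a, which forms the outer cage of COPII vesicles, was the one trafficking gene whose probe sets disagreed by more than 1 on the log2 scale. The probe set with the highest signal had 1541 in the control rat and 1394 in the immobilized rat (-0.14). Another from the same accession had 93.2 and 220 (1.24), and one from a different accession had 159 and 340 (1.09). These last were the only 2 of 78 trafficking probe sets with a ratio to differ by 2-fold, 2.56% against 2.68% of all probe sets with 1 symbol. Which transcripts each of them reads was not examined.

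Coatomer, the coat of vesicles that return from the Golgi to the endoplasmic reticulum, was level for Copz1 (2030 and 2027, 0.00) and Copb1 (378 and 371, -0.03). Copb2 was lower at both probe sets, with 645 and 538 (-0.26) and 393 and 295 (-0.41). Copz2, an alternative zeta subunit, was above the floor in the control rat only (47.2 and 20.6), at least 1.18-fold lower.

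Adaptor complexes, which link cargo to clathrin and related coats, had 6 of 9 genes below 0 and a median of -0.12. In the plasma membrane adaptor the subunits went different ways. Ap2m1, the medium subunit that reads cargo signals, was level (2142 and 2177, 0.02), as was Ap2a2 (368 and 356, -0.05). Ap2b1, the subunit that binds clathrin, was lower at each of 3 probe sets, between -0.45 and -0.08, with 792 and 582 at the highest. Ap2s1, the small subunit, was higher at both probe sets (0.55 and 0.18), with 565 and 826 at the highest. In the adaptor of the trans-Golgi network, both small subunits were lower, Ap1s1 from 522 to 378 (-0.47) and Ap1s3 from 245 to 196 (-0.32), while Ap1b1 was level (338 and 352, 0.06). Of the adaptors for lysosomal and Golgi sorting, Ap3m1 had -0.12 and Ap4s1 -0.39 (146 and 111), and Ap3m2, the neuronal form, exceeded the floor in the immobilized rat only, with 51.1.

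SNARE proteins of the VAMP, syntaxin and SNAP-25 families had a ratio for 12 of 15 genes, 8 of them below 0, with a median of -0.18. Snap23, the form of SNAP-25 used by non-neuronal cells for fusion at the plasma membrane, was the lowest of the 56 genes. It had signals of 117 in the control and 64.4 in the immobilized rat at one probe set and 100.1 and 67.9 at another, from a different accession. The log2 ratios were -0.85 and -0.56, so that the immobilized rat was 1.81-fold and 1.47-fold lower.

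The syntaxins mark different membranes. Stx3, the syntaxin of the apical membrane in epithelia, went from 66.3 to 48.2 (-0.46), and Stx4, that of the basolateral membrane, from 97.3 to 117 (0.27), both with low signals. Stx5, the Golgi syntaxin, was level, at -0.09 (365 and 344) and 0.07, with a further probe set above the floor in the control rat only (42.1 and 24.4). For Stx7, a syntaxin of late endosomes, the ratio was -0.13. Its partner Stx8 had -0.53 at one probe set (172 and 119) and 0.17 at another from the same accession. Stx12, of recycling endosomes, had 0.05 (780 and 808) at one and -0.52 (172 and 120) at another. Stx1a, the neuronal syntaxin, had -0.33 and 0.09 with signals of at most 79.0.

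Among the VAMPs, Vamp3, the cellubrevin of recycling endosomes, had 777 and 848 (0.13). Vamp2, the synaptobrevin of regulated exocytosis, had 213 and 222 (0.06) at one probe set and 55.5 and 96.9 (0.80) at another. Vamp5, best known from muscle, was lower at both probe sets, from 198 to 138 (-0.53) and from 56.8 to 50.3 (-0.18). Vamp1 had -0.23 (91.3 and 77.7) at one probe set, and another from the same accession was above the floor in the control rat only (42.0 and 11.5).

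Of the synaptotagmins, Syt3 alone had a ratio, -0.64, from 72.8 to 46.7 and thus close to the floor. Syt5 (49.5 and 21.0) and Syt17 (53.3 and 27.8) were above the floor in the control rat only, at least 1.24-fold and 1.33-fold lower. Signals this near the floor limit each of these values.

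Where a gene had several probe sets, the data allow a check of its ratio within the arrays. Of 18 trafficking genes with several probe sets measured in both rats, 10 had the same sign at all of them, 6 lower (Ap2b1, Copb2, Rab5a, Rab11a, Snap23 and Vamp5) and 4 higher (Ap1b1, Ap2s1, Rab11b and Vamp2). The other 8 had both signs. This count was not made over all genes of the array, and signs at random would also agree for some of the 18. Rab11a (-0.15 to -0.05) and Ap1b1 (0.06 and 0.11) agreed only with values near 0. Some probe sets of the 18 genes come from the same accession and may share sequence. Their technical SD was 0.34 on the log2 scale, and 0.26 without Sec31a. Snap23 and Rab5a were the only genes whose probe sets all differed by over 0.5 on this scale.

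**Figure D4:**
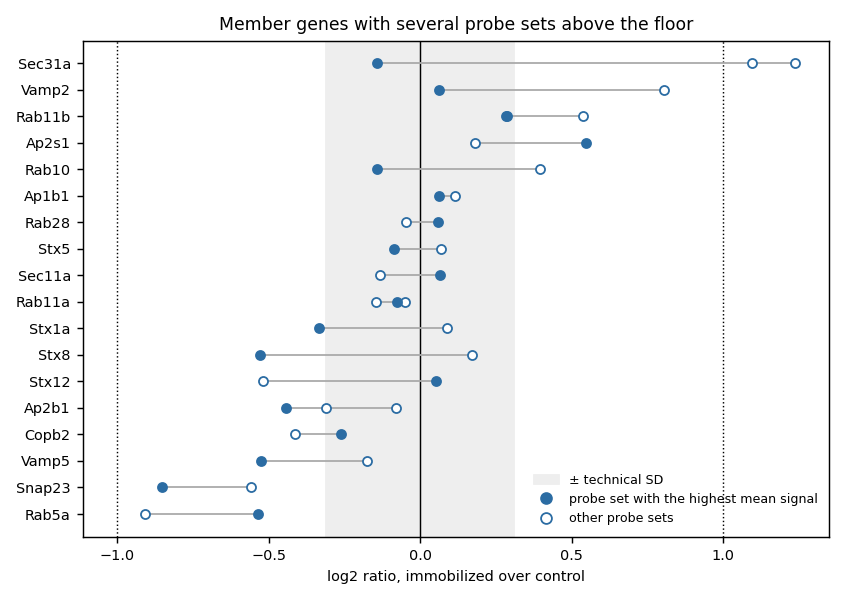
Log2 ratio of every probe set measured in both rats for the 18 trafficking genes with several, 1 row per gene. Filled points are the probe sets with the highest mean signal, open points the others, the grey band the technical SD of 0.31 and the dotted lines a 2-fold difference; Rab5a and Snap23 lie below the band at both points, and Sec31a spans from -0.14 to 1.24.

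The sequences upstream of the genes are shown for Snap23, Rab5a, Rab7a and Rab1a, chosen after their values were seen as the lower trafficking genes of general function. They are the 250 bases before each gene's start in RefSeq on the build GRCr8, 5′ to 3′ on the gene's strand, with each CpG in capitals. Snap23 lies at chr3:127967636-127967885 (plus strand), Rab5a at chr9:6720877-6721126 (plus), Rab7a at chr4:122064186-122064435 (minus) and Rab1a at chr14:98623427-98623676 (plus).
Snap23: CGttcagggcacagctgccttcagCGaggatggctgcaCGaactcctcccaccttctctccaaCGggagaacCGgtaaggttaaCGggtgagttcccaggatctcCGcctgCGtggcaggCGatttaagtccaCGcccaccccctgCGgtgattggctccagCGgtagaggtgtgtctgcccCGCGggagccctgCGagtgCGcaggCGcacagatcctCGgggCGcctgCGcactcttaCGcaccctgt
Rab5a: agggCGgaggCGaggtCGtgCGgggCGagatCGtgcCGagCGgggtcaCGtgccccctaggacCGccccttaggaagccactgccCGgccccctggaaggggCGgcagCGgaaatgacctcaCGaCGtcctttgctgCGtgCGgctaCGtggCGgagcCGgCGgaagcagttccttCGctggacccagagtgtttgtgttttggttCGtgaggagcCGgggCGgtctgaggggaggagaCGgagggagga
Rab7a: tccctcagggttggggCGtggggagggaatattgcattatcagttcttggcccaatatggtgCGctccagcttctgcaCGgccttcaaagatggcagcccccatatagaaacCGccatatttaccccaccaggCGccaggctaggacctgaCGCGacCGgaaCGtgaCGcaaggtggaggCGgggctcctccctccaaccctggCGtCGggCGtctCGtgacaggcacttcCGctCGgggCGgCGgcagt
Rab1a: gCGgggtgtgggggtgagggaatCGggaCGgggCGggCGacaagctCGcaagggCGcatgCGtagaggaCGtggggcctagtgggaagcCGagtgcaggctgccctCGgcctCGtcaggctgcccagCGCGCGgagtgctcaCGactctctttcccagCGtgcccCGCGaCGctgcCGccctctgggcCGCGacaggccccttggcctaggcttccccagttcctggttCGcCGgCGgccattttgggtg

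These windows held 21 CpGs for Snap23, 26 for Rab5a, 19 for Rab7a and 26 for Rab1a. A window was found for 54 of the 56 trafficking genes with a ratio, and the median was 18 CpGs (range 2 to 41), against 17 for all array genes measured in both rats (2137 with a window) and 6 over all 27457 promoters of the table. The motif TATAAA, searched on both strands, was in 0 of the 73 trafficking gene windows found, measured or not. It was in 10.9% of the windows of all array genes and in 13.1% of all promoters. The motif CCAAT, searched likewise, was in 27 of 73 (37.0%), against 35.8% of all array genes and 34.3% of all promoters. The motif CACGTG was in 5 of 73 (6.85%), against 7.78% and 5.79%. In the 54 windows of trafficking genes with a ratio, the motifs were in 0, 22 (40.7%) and 2 (3.7%), in that order. Of array genes measured in both rats, 9.22%, 36.6% and 8.84% held them. No motif contains another. For the genes not above the floor, a window was found for only 15 of 22 (68.2%), too few for a comparison with the measured genes. A match describes these letters only, and its absence says only that they are not in this window.

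Of the genes in 7 lists that regulate the Rabs, Arfs and SNAREs or act beside them, 0 differed by 2-fold, against 2.02% (higher) and 0.674% (lower) of all genes. At 1.5-fold there were 3 of 12 SNARE regulators (25.0%), 3 of 13 clathrin genes (23.1%) and 0 in the other lists, against 13.2% of all genes. Regulators of Rabs were higher for 6 of 8 genes with a ratio (median 0.18), led by the Arf-related Arfrp1 (0.49), placed in that list, and Rabep2 (0.39), an effector of Rab5. Rab3ip, also counted above, and Gdi2, which extracts Rabs from membranes (527 and 374, -0.49), were lower. Regulators of Arfs were lower for 4 of 5 (median -0.16), with Arl1 at -0.39, Cyth2 at -0.25, Arfgap1 at -0.14 and Git1 at 0.24.

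SNARE regulators and further SNAREs had 5 of 12 genes above 0 and a median of -0.12. The Golgi regulator Scfd1 (101.0 and 167, 0.73) and Vps33a (62.8 and 97.2, 0.63), of the tethers of endosomes and lysosomes, were highest, and Unc13a (-0.64) and the Golgi SNARE Gosr1 (-0.28) lowest. Napa, which helps to take spent SNARE complexes apart, was at 0.12, and Nsf, of the same list, was not above the floor (3.8 and 5.0).

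Clathrin and endocytosis genes were lower for 9 of 13 (median -0.18, or 0.02 when the floor was raised to the 70th percentile). Cltb and Epn1 had larger ratios than any of the 56 genes above. The clathrin light chain Cltb went from 738 to 386 (-0.93), while the other light chain Clta (-0.04) and the heavy chain Cltc (1545 and 1377, -0.17) were near level. The epsins, which bend membrane at clathrin pits, opposed each other, Epn1 at 0.97 (154 and 300) and Epn2 at -0.65 (94.3 and 60.0). Bin1, which senses curved membrane, was at 0.31.

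Endoplasmic reticulum entry and cargo receptor genes were lower for 7 of 9 but close to 0 (median -0.09), from Lman1 at -0.38 and Golga2 at -0.21 to Ssr4 at 0.08 and Gorasp1 at 0.25. The exocyst, which tethers vesicles at the plasma membrane, divided into 3 lower and 3 higher, with a median of -0.07 (0.06 with the floor at the 70th percentile), from Exoc5 (-0.53) and Exoc6 (-0.48) to Exoc8 (0.10) and Exoc2 (0.24). Membrane proteins of secretory vesicles had a ratio for only 6 of 18 genes (33.3%, against 53.3% of all genes). These ran from Syn1 (-0.19) and Syngr2 (-0.03) to Syngr1 (0.12) and Scamp1 (0.46). The synaptic vesicle marker Syp was not above the floor (26.7 and 14.3).

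**Figure D5:**
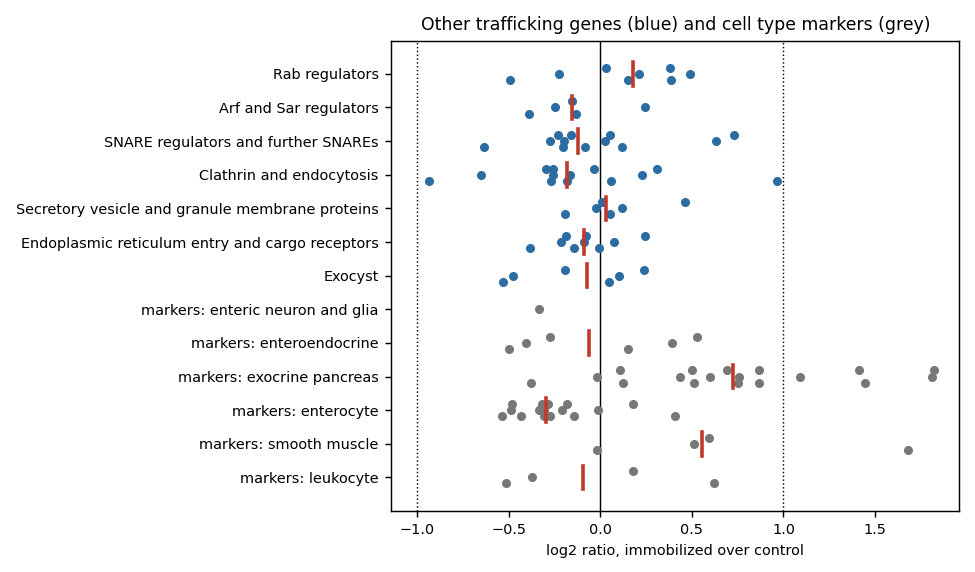
Log2 ratio of the immobilized over the control rat for genes measured in both rats, for 7 lists of other trafficking genes (blue) and 6 lists of cell type markers (grey). Points are genes, red bars are medians of lists with at least 3 genes and dotted lines mark a 2-fold difference; trafficking lists centre between -0.18 and 0.18, enterocyte markers at -0.30 and pancreas markers at 0.72.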

How the data were processed

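RNA of duodenal mucosa was hybridised to rat U34A arrays, 1 for the control and 1 for the immobilized rat, with groups taken from the titles. The deposited values are signal intensities on a linear scale that the authors computed for each probe set. Version 4.0 of the manufacturer's software, with filtering and normalization, is given in the labels' design text and MAS5 in the submitters' processing notes, so which algorithm was used is unsettled. Detection calls were not used here.

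Symbols of the array annotation were updated through the gene ID to RefSeq GRCr8, which changed none of the 86. Array controls (59) and probe sets with several symbols (308) or none (1426) were left out. Signals of the immobilized rat were multiplied by 1.016, which brought the median log2 ratio of measured probe sets to 0, and are printed so. The floor was the 50th percentile of all signals, 39.9. Where only 1 array exceeded it, the signal divided by the floor was given as a bound. For a gene with several probe sets, that with the highest mean signal stood for the gene. The number of arrays limits the precision.

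Named genes were every trafficking gene above the floor on either array and, of the other lists, those at 2-fold and the 2 highest and 2 lowest; others were chosen after their values were seen. Genes, classes and lists were chosen with earlier results of these data known. Alternatives were the signals as deposited, loess scaling (span 0.3), quantile normalization, a floor at the 30th or the 70th percentile, averaging over probe sets, 1.5-fold or 3-fold as threshold, counting bounds, and membership by current symbol. The counting was tested on simulated data with differences well past 2-fold planted in genes well above the floor. Smaller differences and genes near the floor were not tested in this way. The tools were pandas 2.3.3, numpy 2.4.6, statsmodels 0.14.6 and matplotlib 3.10.9 under Python 3.11.15.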

Additional observations from a re-analysis of the deposited data

How the results depend on the processing

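The count of trafficking genes at 2-fold was 0 in each direction under every setting run at that threshold except the floor at the 30th percentile, under which 3 were lower: Rab27a (2.59-fold), Syt5 (2.34-fold) and Copz2 (2.28-fold). In the immobilized rat these 3 have signals of at most 21.1, under the floor of 39.9 used elsewhere. At 1.5-fold, 1 gene was higher and 4 were lower. The median log2 ratio over the trafficking genes ranged from -0.16 to -0.04. The median of all Rabs stayed between -0.22 and -0.15, and that of the endosomal Rabs between -0.32 and -0.16, and neither crossed 0. Several other medians turned sign. With the floor at the 70th percentile they were 0.024 for the Arfs, 0.071 for the VAMPs, 0.023 for clathrin and endocytosis and 0.059 for the exocyst. With the floor at the 30th percentile they were 0.018 for the Arfs, -0.085 for secretory vesicle proteins and 0.082 for leukocyte markers. Loess gave 0.003 for the Arfs and quantile normalization -0.019 for secretory vesicle proteins. Averaging over probe sets gave 0.017 for the recycling Rabs and -0.009 for secretory vesicle proteins. The cause was not tested. Over all settings that gave a value, 34 genes were lower and 12 higher each time, and 10 turned sign. The settings rework the same arrays, and this count was not made over all genes. Averaging over probe sets moved Sec31a from -0.14 to 0.73, Vamp2 from 0.06 to 0.43 and Stx8 from -0.53 to -0.18, each by more than the technical SD of 0.31, and turned Rab10 from -0.14 to 0.13. No paired analysis was possible because each group has 1 array. The spread between animals is unknown, and values near the floor are limited by their signal over background.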
